A study of Sus scrofa with 63 samples.

Results

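Heat shock proteins are molecular chaperones: they bind proteins that are unfolded, newly made or damaged and help them to fold, to cross membranes or to be removed. The family works as sets of partners. Hsp70 proteins (HSPA8 in the cytosol, HSPA5 in the endoplasmic reticulum, where secreted and membrane proteins fold) bind short greasy stretches of a client protein and use ATP to hold and release it. Hsp40 proteins such as DNAJB1 and DNAJA1 bring clients to Hsp70 and speed its ATP use, and HSPH1 exchanges its nucleotide. HSP90AA1 takes over partly folded clients, HSPD1 forms the folding chamber of mitochondria, and the small heat shock proteins HSPB1, HSPB3 and HSPB8 hold unfolded proteins without using ATP. In the intestine, a tissue that makes large amounts of digestive enzymes and lipoproteins, these genes are active in cells that are not under heat stress.

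The members were 10 genes chosen by name: HSPA8, HSPB8, HSPB3, HSPB1, HSPA5, HSPH1, HSP90AA1, HSPD1, DNAJB1 and DNAJA1. On the array every probe whose gene name was one of these symbols was taken, which gave 44 of 60305 probes and 7 of the 10 genes. HSPD1 had 21 probes, HSP90AA1 8, DNAJB1 5, HSPH1 4, HSPA5 3, HSPA8 2 and HSPB8 1. No probe carried the name HSPB1, HSPB3 or DNAJA1. A match of probe accessions to RefSeq genes placed 10 further probes, 2 on HSPB1, 1 on HSPB3 and 7 on HSPB8, and these are described apart from the 44. DNAJA1 had no probe by either route.

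The tissue was the middle of the jejunum of male pig fetuses. Large White (LW) and Meishan (MS) pigs are breeds that differ in how many piglets survive birth, and MS piglets survive better. Sows of both breeds carried purebred and crossbred fetuses: LWMS fetuses had an LW sire and an MS sow, and MSLW fetuses an MS sire and an LW sow. The 63 fetuses fell into 8 groups: at day 90 of gestation 9 LW, 6 MS, 9 LWMS and 8 MSLW fetuses, and at day 110 9 LW, 7 MS, 9 LWMS and 6 MSLW. No fetus group was given a treatment in the labels. The labels do not say which fetuses shared a sow, so litter mates were handled as independent and p-values may be too small.

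Each fetus was measured once on a one-colour array. A level is given as log2 of the probe's signal relative to the 75th percentile of its array, so 0 is a signal at that percentile and a step of 1 is a doubling. Levels are compared between fetuses for the same probe only. Differences carry a standard error (SE) and an adjusted p-value (q) from limma, fitted on 40515 probes that passed a detection filter. A difference was called at q of at most 0.01 and a size of at least 0.5 for age and for MS minus LW, at q of at most 0.01 for breed by age, and at q below 0.05 for sow and sire breed. Of the 44 member probes 43 passed the filter; the other, HSPH1 probe O9993, was well above background on 2 of 63 arrays. A gene was counted by its brightest tested probe.

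The jejunum label was checked on marker genes. Of 12 enterocyte markers 8 were on the array and 7 were well above background on every array. Genes of other tissues gave a mixed picture. The liver genes CYP2E1 and F9 were so on 2 and 15 arrays, but SERPINC1 and HAMP on 62 and 56. The skeletal muscle genes MYL1, MYH2 and TNNT3 were so on 5, 7 and 27 arrays, but ACTA1, CKM and TNNC2 on all 63. Across arrays 51.2 to 87.6% of probes were well above background. One MS fetus of day 110, fetus 632, stood apart: its array correlated with the others of its group at a mean r of 0.904, against 0.954 to 0.974 for the other 6. Its summed enterocyte marker level was 152 times the 75th percentile signal, against 899 to 1740 in the others, and its summed fibroblast level was 307 against 63.2 to 166. Results that rest on it are given with and without it where both were at hand. The medians over the named genes and the HSPD1 differences keep it.

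The plot of the brightest probe of each member by group shows the members' levels at a glance.

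**Figure D1:**
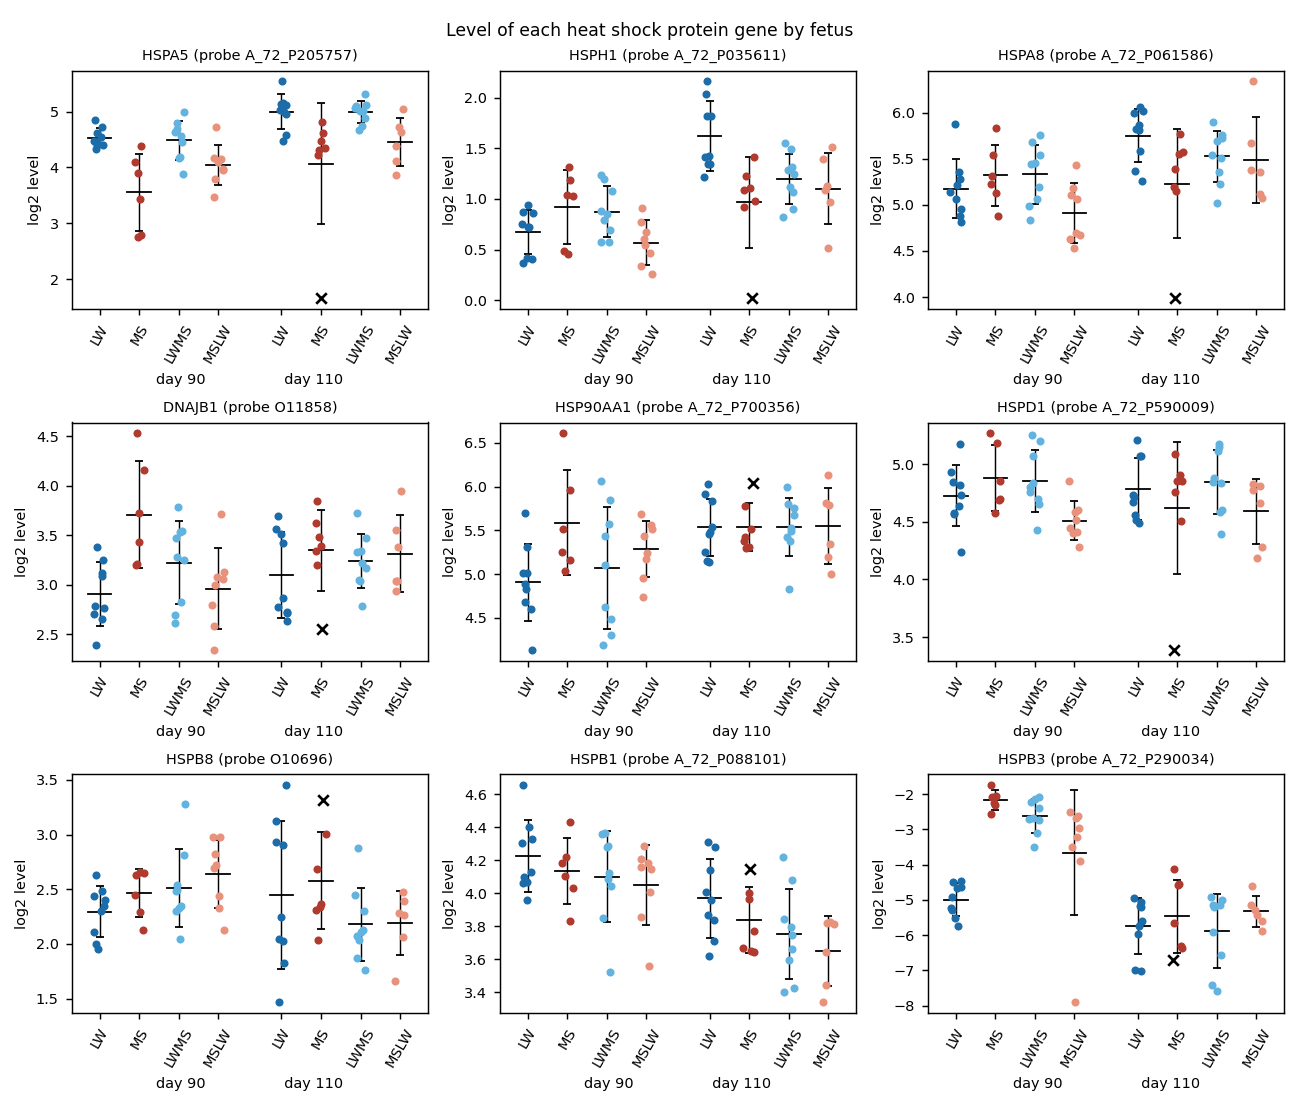
Level of the brightest probe of each of 9 genes, HSPB1 and HSPB3 by accession (vertical axes, log2 relative to the array's 75th percentile) in the 8 genotype by day groups (horizontal axes). Each point is 1 fetus, the bars give mean ± SD, and the X marks MS fetus 632 of day 110. With fetus 632 kept, HSPA5 was low in MS fetuses on both days (means 3.56 and 4.07 against 4.54 and 5.0 in LW). HSPH1 was highest in LW fetuses of day 110 (mean 1.62), and HSPB3 was near or below background in most fetuses of day 110.

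HSPA5 encodes BiP, the main Hsp70 of the endoplasmic reticulum, which pulls new proteins into that compartment and keeps the sensors of the unfolded protein response inactive. With all fetuses kept, it was the only one of the 7 named genes whose brightest probe was called for breed on both days. A dimmer HSP90AA1 probe, A_72_P232852, was also called lower in MS on both days. At day 90 its brightest probe, A_72_P205757, lay between 4.34 and 4.85 in the 9 LW fetuses (median 4.48) and between 2.75 and 4.39 in the 6 MS fetuses (median 3.67). Only the highest MS fetus reached into the LW range. The mean was lower in MS by 0.98 on the log2 scale (difference -0.98 ± 0.26 SE, limma q = 0.00982).

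At day 110 the same probe lay between 4.48 and 5.54 in LW (median 5.03) and between 1.65 and 4.82 in MS (median 4.34). The ranges overlapped, and the lowest MS value was that of fetus 632. The difference was -0.93 ± 0.25 (q = 0.00771). Without fetus 632 it was -0.53 ± 0.19 (q = 0.0498), below the size of the full estimate by more than 1.5 times and no longer called, while the difference at day 90 was -0.98 (q = 0.000162). With the slide as a block the day 110 call was lost too (-0.88, q = 0.0141).

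The other HSPA5 probes gave the same direction. Probe O878 overlaps A_72_P205757 in sequence, so these are not separate readings of the gene. Probe A_72_P416982 shares no stretch of 20 bases with either, and its sequence is shown because it is the separate reading on which the HSPA5 result at day 110 held without fetus 632. It is printed from the deposited array files, 5′ to 3′; its genome position is not given here.
HSPA5 A_72_P416982: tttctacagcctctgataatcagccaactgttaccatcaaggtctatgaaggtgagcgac
At day 90 this probe lay between 1.51 and 2.29 in LW and between 0.01 and 1.30 in MS, with no overlap. The difference was -1.21 ± 0.25 (q = 0.000514). At day 110 it lay between 1.79 and 2.69 in LW and between -1.10 and 2.06 in MS, a difference of -1.05 ± 0.24 (q = 0.00143), and of -0.67 ± 0.18 (q = 0.00857) without fetus 632.

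Over the 7 named genes, the MS minus LW comparison called 2 at day 90, HSPA5 lower and DNAJB1 higher, against 3.59% of all tested probes. By probes this was 5 of 43. At day 110 it called 2 genes, HSPA5 and HSPH1, both lower in MS, and 7 of 43 probes, all lower, against 5.01% of all probes. The median difference over the 7 genes was 0.17 at day 90 and -0.16 at day 110, beside 0.03 and 0.02 over all probes. These medians keep fetus 632 and are not given without it. At day 110 it lay below the other 6 MS fetuses for DNAJB1, HSPA5, HSPA8, HSPD1 and HSPH1. It lay above them for HSP90AA1 and HSPB8. The breed difference changed between the days for 0 of the 7 genes and 0 of the 43 probes, with 0.0173% of all probes called; the smallest member q was 0.0436.

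The crossbred fetuses allowed the breeds of sow and sire to be separated. For HSPA5 the sire's breed gave a called difference, while the sow's breed gave none in the main analysis. The 36 fetuses of LW sires lay between 3.88 and 5.54 (mean 4.75 ± 0.36 SD) and the 27 fetuses of MS sires between 1.65 and 5.05 (mean 4.03 ± 0.73 SD), so the ranges overlapped widely. Averaged within sow breed and day, MS sires gave a level lower by 0.72 (difference -0.72 ± 0.13, q = 3.39e-05). The probes O878 and A_72_P416982 gave -0.75 ± 0.12 (q = 1.33e-05) and -0.77 ± 0.12 (q = 4.55e-06). Without fetus 632 the 3 probes gave -0.62, -0.65 and -0.67 and stayed called. In every one of the 8 slides, the groups of arrays printed on 1 piece of glass, fetuses of MS sires were lower, by 0.16 to 1.33 (differences -0.16 to -1.33, median -0.78). These are plain differences of means with days and sow breeds pooled and fetus 632 kept. On some slides the MS sire fetuses were all of day 90, when HSPA5 means were lower, so the slide differences are not free of age. The slide differences for sow breed given below pool the sire breeds in the same way.

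The sow's breed gave no called difference for HSPA5 in the main analysis. Its difference (MS sows minus LW sows) was -0.27 at day 90 (q = 0.417) and -0.20 at day 110 (q = 0.542). Probe A_72_P416982 gave -0.48 ± 0.17 at day 90 (q = 0.0783), which was called without fetus 632 (-0.48, q = 0.00828) and with the slide as a block (-0.49, q = 0.0429). The crossbred means showed the same order on both days: 4.49 ± 0.35 in LWMS and 4.04 ± 0.35 in MSLW at day 90, and 5.0 ± 0.20 and 4.46 ± 0.43 at day 110. A direct comparison of the crosses, which was chosen after the values were seen and in which 1.6% of all probes were called, called 0 of the 7 genes: HSPA5 was higher in LWMS by 0.49 ± 0.18 (q = 0.135). The crosses differ in both parents, so this comparison is the sow difference minus the sire difference. It was not called, so a sire difference larger than the sow difference was not established. A sire effect cannot be told apart there from a sow effect of the opposite sign.

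**Figure D2:**
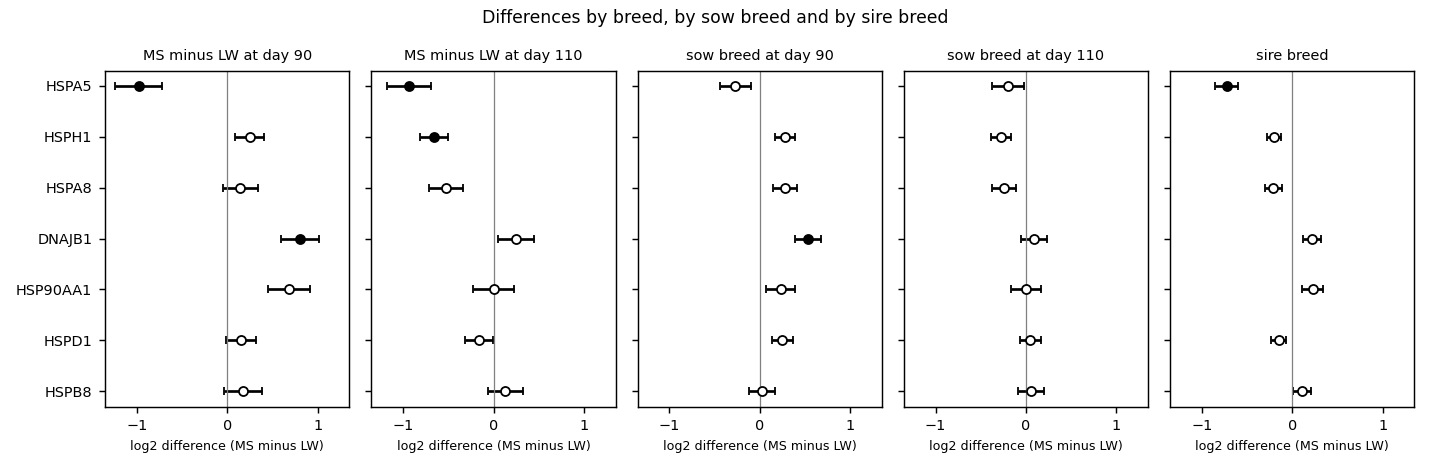
Differences of the brightest probe of each of the 7 named genes (log2, horizontal axes, bars ± SE) between MS and LW fetuses at each day, between MS and LW sows at each day, and between MS and LW sires. Filled markers are called. HSPA5 sat at -0.98 and -0.93 for breed and at -0.72 for sire, and DNAJB1 at 0.80 for breed and 0.53 for sow at day 90.

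Sire breed called 1 of the 7 genes, HSPA5, against 6.97% of all probes, and 4 of 43 probes, all lower with MS sires. The sire's difference changed with age for 0 members and for 0% of all probes: limma called 0 of 40515, with 708 below an unadjusted p of 0.05, and the smallest member q was 0.999799. The median sire difference over the 7 genes was -0.15, beside 0.00 over all probes.

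HSPA5 had higher means at day 110 than at day 90 in every genotype, by amounts that were not called with all fetuses. The differences (day 110 minus day 90) were 0.46 in LW, 0.51 in MS, 0.51 in LWMS and 0.42 in MSLW. Without fetus 632 the difference in MS was 0.91 (q = 0.00193), which was called. Averaged over genotypes the difference was 0.48 ± 0.13 (q = 0.00174), under the limit of 0.5, and 0.58 (q = 6.52e-07) without fetus 632, where it was called.

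HSPH1, also called Hsp110 or Hsp105, is the nucleotide exchange factor that resets Hsp70 for another round and helps to dissolve aggregates. Among the 7 genes found by name it was the one called for age in a single genotype, LW, by its brightest probe. Probe A_72_P035611, its brightest, lay between 0.37 and 0.94 in LW fetuses of day 90 (median 0.72) and between 1.22 and 2.16 at day 110 (median 1.42). The ranges did not overlap. The rise was 0.94 ± 0.15 (q = 4.15e-06), and the day 110 mean was higher in 7 of the 7 slides that held LW fetuses of both days (0.59 to 1.44).

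The other tested HSPH1 probes share no stretch of 20 bases with it or with each other. Probe A_72_P591989 ran from -0.21 to 0.16 at day 90 and from 0.71 to 1.52 at day 110 in LW, a rise of 1.11 ± 0.13 (q = 1.37e-08). Probe A_72_P050661 ran from -2.98 to -1.94 and from -1.51 to -0.30, a rise of 1.58 ± 0.19 (q = 1.06e-08). All 3 probes thus separated the LW fetuses of the 2 days without overlap. The sequence of the last is shown because it gave the largest HSPH1 differences.
HSPH1 A_72_P050661: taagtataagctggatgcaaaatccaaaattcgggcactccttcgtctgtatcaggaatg

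In MS fetuses the ranges of the 2 days overlapped for HSPH1. A_72_P035611 lay between 0.46 and 1.32 at day 90 (median 1.04) and between 0.02 and 1.42 at day 110 (median 1.09), and the 3 probes gave differences of 0.04 (q = 0.921), 0.14 (q = 0.678) and 0.19 (q = 0.686). Without fetus 632 the first was 0.20 (q = 0.525). In MSLW fetuses, which also had LW sows, the differences were 0.53 ± 0.17 (q = 0.0264, not called), 0.84 ± 0.15 (q = 0.000101) and 1.06 ± 0.22 (q = 0.000473). In LWMS fetuses they were 0.32 (q = 0.114), 0.62 ± 0.13 (q = 0.000538) and 0.69 ± 0.19 (q = 0.00633), so the 2 dimmer probes were called in both crosses and the brightest in neither.

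The test of the difference between the breeds' age changes did not pass its limit of 0.01 for any HSPH1 probe. It gave -0.90 ± 0.23 (q = 0.128), -0.97 ± 0.21 (q = 0.0466) and -1.39 ± 0.29 (q = 0.0436). The same change with the sow's breed, taken over purebred and crossbred fetuses, was -0.55 (q = 0.0864), -0.60 ± 0.15 (q = 0.041) and -0.88 ± 0.21 (q = 0.0293), so the 2 dimmer probes passed the limit of 0.05 set for that comparison. By brightest probes 0 of the 7 genes and by probes 2 of 43 were called for sow breed by age, against 0.388% of all probes. Without fetus 632 the call was lost for A_72_P591989 (-0.55, q = 0.0649) and held for A_72_P050661 (-0.83, q = 0.0466). With the slide as a block neither was called (-0.57, q = 0.0976 and -0.86, q = 0.0618).

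At day 110 HSPH1 was lower in MS than in LW fetuses. The difference was -0.65 ± 0.16 (q = 0.00284) for A_72_P035611, -0.62 ± 0.14 (q = 0.00228) for A_72_P591989 and -0.76 ± 0.20 (q = 0.008) for A_72_P050661. Without fetus 632 these were -0.50 (q = 0.0189), -0.52 (q = 0.0116) and -0.66 (q = 0.0285), none of them called. MS was lower in 5 of the 5 slides that held both breeds at day 110. Sow breed at day 110 called 0 of the 7 genes and 2 of 43 probes, both HSPH1 and both lower with MS sows, against 9.97% of all probes: -0.31 ± 0.10 (q = 0.0447) for A_72_P591989, whose call was lost without fetus 632 (-0.26, q = 0.0797), and -0.59 ± 0.15 (q = 0.00492) for A_72_P050661.

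Over the members, age averaged over genotypes called 0 of the 7 genes and 2 of 43 probes, both HSPH1 and both higher at day 110, against 13.7% of all probes. Within genotypes, LW called 1 gene (HSPH1) and 3 probes against 4.77% of all probes. MS called 0 genes and 0 probes against 3.17%, with a smallest member q of 0.0966. LWMS and MSLW each called 0 genes and 2 probes, against 9.88% and 5.41%. The median age difference over the 7 genes was 0.46 in LW, -0.05 in MS, 0.20 in LWMS and 0.35 in MSLW, beside 0.00, -0.02, -0.04 and -0.03 over all probes. The summed cell type markers moved with age as well. The group medians of the enterocyte sum lay between 753 and 947 at day 90 and between 994 and 1552 at day 110. Those of the fibroblast sum lay between 151 and 202 and between 99.1 and 127. The enterocyte sum is weighted to its brightest genes. Its 8 tested genes did not move together, with 3 called higher and 1 lower for age averaged over genotypes. Their median age difference was 0.40 averaged over genotypes and -0.03 in MS. With the enterocyte sum as a covariate, HSPH1 in LW stayed called on all 3 probes (0.90, 1.08 and 1.53), while A_72_P050661 in LWMS was no longer called (0.55, q = 0.0348).

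**Figure D3:**
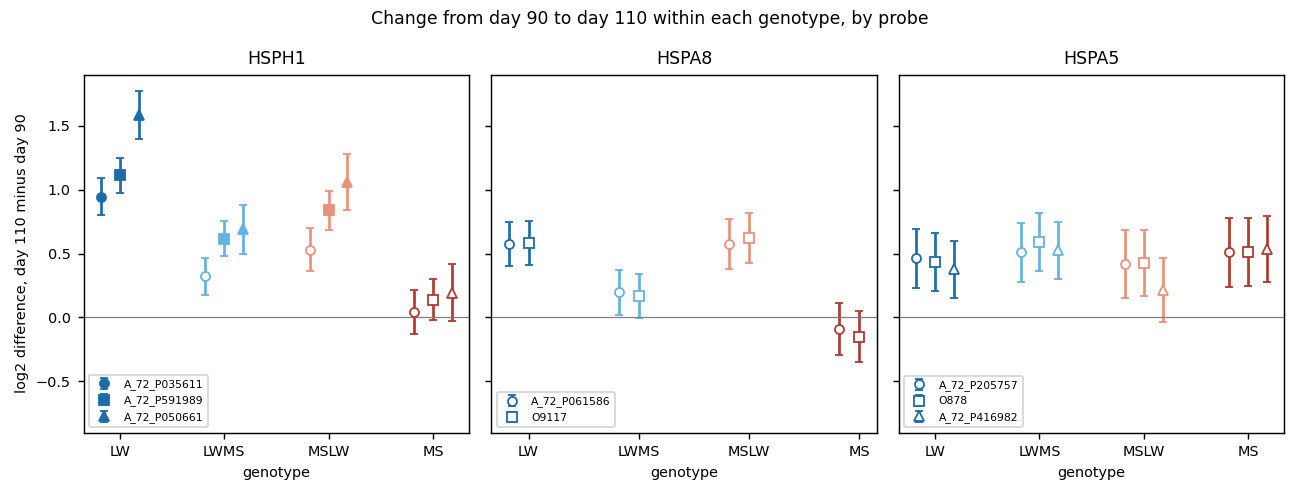
Difference between day 110 and day 90 (log2, vertical axes, bars ± SE) of each tested probe of HSPH1, HSPA8 and HSPA5 in each genotype (horizontal axes), with filled markers where it was called. The brightest HSPH1 probe sat at 0.94 in LW, 0.53 in MSLW, 0.32 in LWMS and 0.04 in MS, and the HSPA5 probes lay above 0 in all 4 genotypes with no call.

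HSPA8, or Hsc70, is the constitutive cytosolic Hsp70 that folds new proteins and strips clathrin from vesicles. Its brightest probe, A_72_P061586, lay between 4.81 and 5.88 in LW at day 90 (median 5.14) and between 5.26 and 6.06 at day 110 (median 5.83), overlapping ranges. The difference of 0.58 ± 0.17 (q = 0.0212) was not called. Without fetus 632, an MS fetus that enters this fit through the shared estimate of spread, it was called (0.58, q = 0.00709). In MS the means were 5.32 and 5.23 (difference -0.09, q = 0.855), and in MSLW 4.92 and 5.49 (0.57 ± 0.20, q = 0.0474). MS minus LW at day 110 was -0.52 ± 0.19 (q = 0.059), and -0.32 (q = 0.229) without fetus 632. HSPA8 was called in no comparison of the main analysis. With the authors' processed values of the same 63 fetuses both of its probes were called in 4 comparisons; the brightest gave 0.66 for age in LW (q = 4.42e-05), -0.67 for MS minus LW at day 110 (q = 0.000113), -0.36 for sow breed at day 110 (q = 0.00607) and -0.55 for sow breed by age (q = 0.0231). This probe shares bases with a probe of another annotated gene, so its signal may hold more than 1 transcript; the other probe, O9117, does not, and it gave 0.58 in LW (q = 0.0179) and -0.60 at day 110 (q = 0.0238). With the slide as a block, O9117 was also called for sire (-0.28, q = 0.0451).

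DNAJB1 (Hsp40) delivers clients to Hsp70 and is among the genes most strongly induced by heat. At day 90 its probe O11858 lay between 2.39 and 3.38 in LW (median 2.78) and between 3.20 and 4.53 in MS (median 3.58). The ranges overlapped narrowly. MS was higher by 0.80 ± 0.21 (q = 0.00879), in 6 of 6 slides by 0.34 to 1.45. The sow's breed carried a called difference on that day: MS sows gave 0.53 ± 0.14 more (q = 0.0135), in 8 of 8 slides. LWMS fetuses, with MS sows, had a mean of 3.22 and MSLW fetuses of 2.96, with wide overlap. Sow breed at day 90 called 1 of the 7 genes (DNAJB1) and 3 of 43 probes, all of DNAJB1, against 5.7% of all probes.

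The DNAJB1 probes did not all pass. A_72_P260797 and A_72_P268464, which overlap each other, gave 0.77 (q = 0.0306) and 0.87 (q = 0.01003, just past the limit and not called) for MS minus LW, and 0.53 (q = 0.0332) and 0.59 (q = 0.0135), both called, for the sow. A_72_P203192 and A_72_P204112 gave sow differences of 0.31 (q = 0.215) and 0.32 (q = 0.156). At day 110 the group means of O11858 were 3.10 in LW and 3.35 in MS (difference 0.25, q = 0.493). Whether the breed difference changed between the days did not pass the test (-0.56, q = 0.783).

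HSP90AA1 encodes the inducible cytosolic Hsp90, the chaperone of kinases and steroid hormone receptors. Its 8 probes did not move together. The brightest, A_72_P700356, lay between 4.13 and 5.69 in LW and between 5.04 and 6.61 in MS at day 90. The difference of 0.68 ± 0.23 (q = 0.0685) was not called, nor were those of A_72_P174931 (0.68, q = 0.0133) and A_72_P634756 (0.59, q = 0.0198). At day 110 the 4 group means of A_72_P700356 lay between 5.53 and 5.55.

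Probe A_72_P232852 went the other way. It lay between 4.00 and 4.49 in LW and between 3.16 and 4.10 in MS at day 90, and between 3.96 and 4.54 in LW and between 2.95 and 4.02 in MS at day 110. Each pair of ranges overlapped by a small margin. The differences were -0.52 ± 0.13 (q = 0.00682), -0.57 ± 0.13 (q = 0.00115) and, for sire, -0.40 ± 0.06 (q = 6.56e-06). The sire difference was negative in 8 of 8 slides, with days and sow breeds pooled. Across the 8 probes the MS minus LW difference ran from -0.52 to 0.68 at day 90 and from -0.57 to 0.12 at day 110, and the sire difference from -0.40 to 0.25.

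Sequences are shown for HSP90AA1 because its probes disagreed. The brightest probe and the pair O8902 and A_72_P525187, which hold 1 and the same sequence, read different parts of the transcript.
HSP90AA1 A_72_P700356: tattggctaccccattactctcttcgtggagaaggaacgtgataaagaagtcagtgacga
HSP90AA1 O8902 and A_72_P525187: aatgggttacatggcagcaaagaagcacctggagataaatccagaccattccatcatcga
The identical pair differed by a mean of -0.03 with an SD of 0.07 over the 63 arrays, which is the error of a repeated reading on 1 array at that signal. A_72_P232852 and A_72_P683318 share a run of 20 bases:
shared by A_72_P232852 and A_72_P683318: atttgagcactaaagccgag
The neighbour gave differences of -0.24 (q = 0.409) and -0.23 (q = 0.328) and a sire difference of -0.18 (q = 0.106), none of them called. Probes that overlap in sequence thus differed in size and in call. Whether sequence variants under a probe, isoforms or a related gene contribute was not tested.

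**Figure D4:**
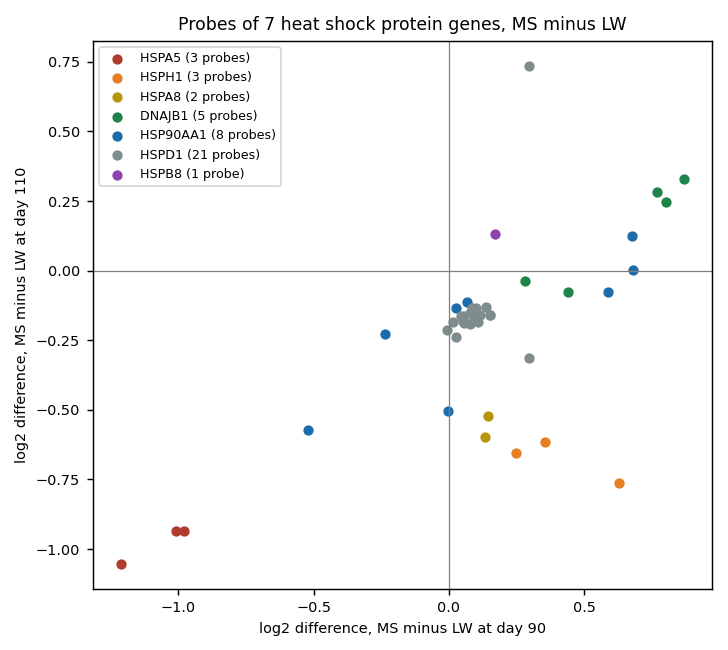
MS minus LW difference of each of the 43 tested member probes at day 90 (horizontal axis, log2) against day 110 (vertical axis, log2), 1 point per probe, coloured by gene. The 3 HSPA5 probes lay together at the lower left, the 8 HSP90AA1 probes spread from -0.52 to 0.68 at day 90, and the HSPD1 point at the top is the dim probe O3429 (0.74 at day 110, q = 0.156).

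HSPD1, or Hsp60, forms with HSPE1 the chamber in which mitochondrial proteins fold, and was called in no comparison. Its brightest probe, A_72_P590009, had group means of 4.72 in LW, 4.88 in MS, 4.86 in LWMS and 4.51 in MSLW at day 90, and of 4.78, 4.62, 4.84 and 4.59 at day 110. Apart from the dim probe O3429, its 20 probes gave age differences of -0.14 to 0.11 and MS minus LW differences of -0.01 to 0.30 at day 90 and of -0.31 to -0.13 at day 110. They count as 1 gene. The differences at day 110 keep fetus 632 and are not given without it. Its A_72_P590009 level was 3.38, against 4.50 to 5.09 in the other 6 MS fetuses of that day. Intervals of 2 SE on these probes reached 0.64 at day 90 and -0.64 at day 110 for MS minus LW, so a difference of 0.5 lay within the widest of them. O3429 gave 0.30 (q = 0.737) and 0.74 (q = 0.156).

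The small heat shock proteins showed 3 patterns. HSPB8, which works with BAG3 in the removal of damaged proteins in muscle and other cells, had means between 2.18 and 2.64 in the 8 groups on probe O10696. None of its 8 probes, the 7 found by accession included, was called. HSPB1 (Hsp27), which guards actin filaments, was found by accession only. Its brightest probe A_72_P088101 had means of 4.22, 4.13, 4.10 and 4.05 in LW, MS, LWMS and MSLW at day 90 and of 3.97, 3.84, 3.75 and 3.65 at day 110. The age difference averaged over genotypes (-0.33 ± 0.06, q = 3e-05) was under the fold limit and was not called.

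HSPB3, best known from heart and skeletal muscle, was also found by accession only, on 1 probe, whose sequence is shown because no gene name on the array identifies it.
HSPB3 A_72_P290034: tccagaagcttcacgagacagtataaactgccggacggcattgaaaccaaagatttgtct
The signal was dim, well above background on 39 of 63 arrays. At day 90 it lay between -5.73 and -4.46 in LW (well above background on 6 of 9 arrays) and between -2.57 and -1.75 in MS (6 of 6). It lay between -3.51 and -2.07 in LWMS (9 of 9) and between -7.90 and -2.50 in MSLW (7 of 8). LW fetuses thus lay below all MS and LWMS fetuses, with no overlap. At day 110 the 4 means lay between -5.88 and -5.32, and 2 of 9 LW, 3 of 7 MS, 4 of 9 LWMS and 2 of 6 MSLW arrays were well above background.

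The HSPB3 difference at day 90 was 2.82 ± 0.48 (MS minus LW, q = 2.3e-05), in 6 of 6 slides. MS sows gave 1.93 ± 0.33 more at day 90 (q = 3.57e-05), in 8 of 8 slides, and -0.14 at day 110, a change with age of -2.07 ± 0.46 (q = 0.0207) that was not called with the slide as a block (-1.87, q = 0.0739) or after quantile normalization (-1.81, q = 0.0789). The probe fell from day 90 to day 110 by 3.29 in MS (difference -3.29 ± 0.50, q = 7.21e-06) and by 3.26 in LWMS (difference -3.26 ± 0.43, q = 5.52e-08). The size of this fall is uncertain, since most day 110 arrays were not well above background: it was -1.43 in MS and -1.32 in LWMS with normexp background correction, and -1.91 and -1.74 with the authors' values, called in each case. The differences in MSLW (-1.66, q = 0.0173) and in LW (-0.75, q = 0.288) were not called, and breed by age was not called either (-2.54, q = 0.169). Values near background are imprecise: with normexp background correction the difference at day 90 was 1.62, still called, against 2.82.

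The within-group SD of the 7 brightest probes ran from 0.31 (HSPH1) to 0.50 (HSPA5), beside a median of 0.43 over all probes. Once group means were removed, several members varied together over the 63 fetuses. Of 21 pairs, 14 had a permutation p below 0.05 after Benjamini-Hochberg adjustment over the 21. The share of such pairs among all genes was not computed, so the count does not set the members apart from other genes. It was not repeated without fetus 632, which moved several pairs. Without it HSPA5 with HSPD1 went from r = 0.59 to 0.30, and HSPA8 with HSPB8 from -0.34 to -0.25. HSP90AA1 with HSPA5 went up, from 0.13 to 0.35. HSPA8 and HSPD1 gave the highest correlation (Pearson r = 0.80, Spearman rho = 0.75, permutation adjusted p = 5.25e-05 for both). It was 0.75 without the 2 fetuses farthest from the HSPA8 median, 0.81 with slide means removed too, and 0.73 without fetus 632. With the authors' values it was 0.59, and other pairs moved in both directions. HSPA5 with HSPD1 fell from 0.59 to 0.44 (permutation adjusted p = 0.112) and DNAJB1 with HSPA8 from 0.59 to 0.32. HSP90AA1 with HSPD1 went from -0.02 to -0.37 (permutation adjusted p = 0.00724), while HSPA8 with HSPH1 rose from 0.62 to 0.75.

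HSPA5 with HSPA8 gave r = 0.68 and rho = 0.60 (permutation adjusted p = 5.25e-05 for both), with 0.56 without the 2 farthest fetuses and 0.69 within slides. HSPA8 with HSPH1 gave r = 0.62 and rho = 0.57 (permutation adjusted p = 0.000168 for both), 0.52 without the 2 farthest and 0.68 within slides. HSPB8 correlated positively with HSP90AA1 (r = 0.42, rho = 0.48, permutation adjusted p = 0.00069 and 0.00028), at 0.49 without the 2 farthest fetuses, 0.38 within slides and 0.39 without fetus 632. Its r was negative with other members: -0.37 with DNAJB1 (rho -0.34, permutation adjusted p = 0.011 and 0.0179) and -0.34 with HSPA8 (rho -0.34, permutation adjusted p = 0.0141 and 0.0177).

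The same members moved with the summed cell type markers. The summed enterocyte markers correlated within groups with HSPD1 (r = 0.71, rho = 0.64, permutation adjusted p = 4.67e-05 and 2.33e-05 over 7 members), with HSPA8 (r = 0.70, rho = 0.68), with DNAJB1 (r = 0.64, rho = 0.66) and with HSPB8 (r = -0.53, rho = -0.37). Without fetus 632 these were 0.54, 0.58, 0.63 and -0.49. The summed fibroblast markers correlated with HSPB8 at r = 0.60 (rho = 0.56) and with HSPA8 at r = -0.62 (rho = -0.56). In bulk tissue fewer cells of a type and less RNA per cell cannot be told apart, and the part of sample makeup in these correlations was not tested.

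HSPA5 and HSPH1, the members called for breed on day 110, were set beside the enterocyte sum with and without fetus 632. HSPA5 had r = 0.61 with the enterocyte sum (rho = 0.43, permutation adjusted p = 0.00337 and 0.00266) and r = 0.27 without fetus 632. HSPH1 had r = 0.30 (rho = 0.15, permutation adjusted p = 0.102 and 0.289) and 0.01 without it. The enterocyte sums of the groups were not equal: their medians were 753 in LW and 947 in MS at day 90, and 994 and 1398 at day 110. A fit with the enterocyte sum as a covariate was chosen after the values were seen, and it kept fetus 632. In it HSPA5 differed by -1.16 (q = 5.98e-05) at day 90, by -0.98 (q = 0.000295) at day 110 and by -0.75 (q = 1.34e-07) for sire, all called. DNAJB1 gave 0.65 (q = 0.00637) for breed and 0.42 (q = 0.0153) for sow at day 90, both called. The age difference of HSPA5 was 0.24 (q = 0.0695) in that fit, against 0.48 without the covariate. The part of sample makeup in the breed and age differences was not tested.

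**Figure D5:**
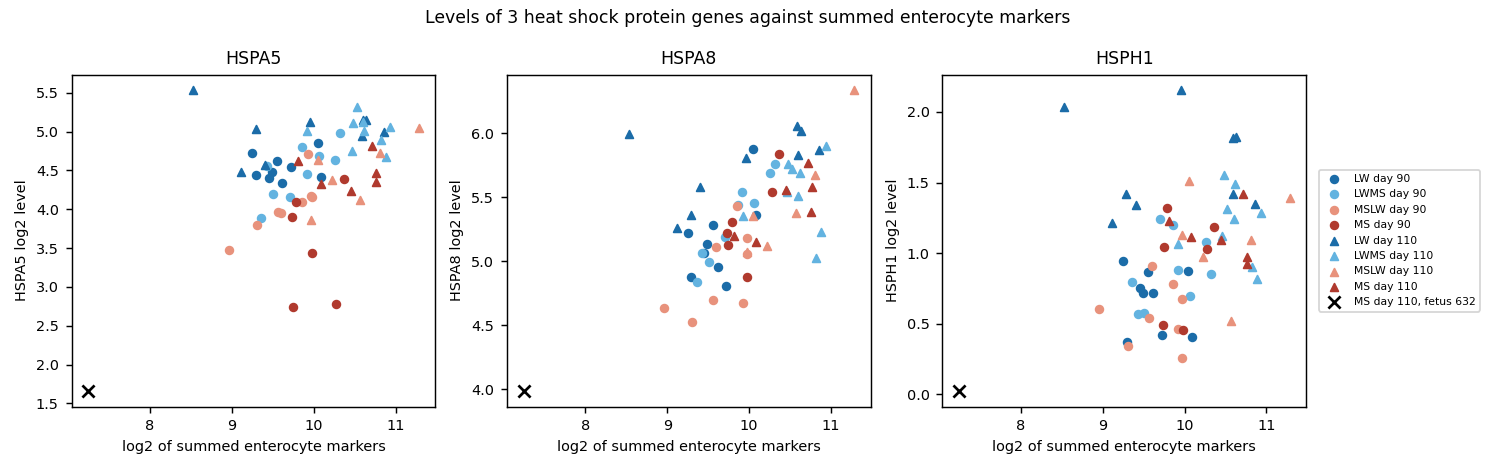
Level of HSPA5, HSPA8 and HSPH1 (log2, vertical axes) against the summed enterocyte marker level of the same array (log2 of multiples of the 75th percentile signal, horizontal axes), 1 point per fetus, coloured by group, with an X for fetus 632. Fetus 632 lay far to the left of the rest with a sum of 152, and it had the lowest HSPA5 level, 1.65.

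The genes most like each called member over the 63 fetuses, by Pearson r among 9209 named genes, are given as a description. For HSPA5 they were SDSL (0.74), CYP2C42 (0.71) and PDXK (0.71). For HSPH1 they were HSPA8 (0.75), C4BPA (0.68) and POLR3E (0.67). For DNAJB1 they were TOMM40L (0.76), VPS25 (0.73) and KDSR (0.72). For HSP90AA1 they were EYA3 (0.88), SMARCC1 (0.87) and MTDH (0.85), and for HSPB3 they were NDST4 (0.76), STMN1 (0.74) and COL18A1 (0.74). These correlations hold group differences and sample makeup as well.

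The wider chaperone network was described by 8 lists of 130 other genes, of which 102 were on the array and 92 were tested. With age averaged over genotypes 7 rose and 3 fell, 10.9% of those tested, beside the 13.7% of all probes. The endoplasmic reticulum list, which holds HSPA5's partners, had 4 of 24 genes higher and 1 lower, with a median of 0.32. Those that rose were SDF2L1 (1.01 ± 0.14), DNAJB11 (0.66 ± 0.10), CRELD2 (0.55 ± 0.08) and SEL1L (0.52 ± 0.12); the first pair work with BiP, and SEL1L serves the removal of misfolded proteins. DDIT3, a transcription factor of prolonged endoplasmic reticulum stress, fell by 0.51 (difference -0.51 ± 0.13).

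The Hsp90 list had 2 of 12 genes higher: CHORDC1 (0.52 ± 0.08) and FKBP5 (1.95 ± 0.12, q = 1.29e-19), a cochaperone of steroid receptors that glucocorticoids induce. Of 18 Hsp40 genes 1 rose, DNAJC21 (0.78 ± 0.11), which serves ribosome assembly. None of the 11 cytosolic Hsp70 genes, 13 chaperonin genes, 7 mitochondrial genes and 3 small heat shock genes was called. A list with 4 tested genes held regulators of the heat shock response and also CIRBP, a cold inducible RNA binding protein. Of these 4 genes 2 fell: HSF2 by 0.71 (difference -0.71 ± 0.20) and CIRBP by 0.61 (difference -0.61 ± 0.10, q = 6.31e-07). In the list of genes that respond to handling within minutes FOS rose (0.67 ± 0.20), while DUSP1 (0.31) and EGR1 (-0.33) were not called.

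CIRBP had a pattern across groups opposite in sign to that of HSPH1. Its LW mean was 2.19 at day 90 (1.81 to 2.79) and 0.82 at day 110 (0.22 to 1.61), with no overlap, and fell by 1.37 (difference -1.37 ± 0.18, q = 7.37e-08). Its MS means were 1.49 and 1.56. At day 110 it was higher in MS than in LW by 0.74 ± 0.19 (q = 0.00555), and the sow difference changed with age by 0.96 ± 0.19 (q = 0.00675). Within groups the correlation of CIRBP with HSPH1 was r = -0.15 (permutation adjusted p = 0.338 over 7 members). With HSPD1 it was 0.48 (permutation adjusted p = 0.00049) and with HSPA8 0.45 (permutation adjusted p = 0.00273). The other members had a permutation adjusted p above 0.05: DNAJB1 (0.27), HSPA5 (0.14), HSP90AA1 (-0.03) and HSPB8 (-0.19). These relations were chosen after the values were seen.

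Between the breeds MS minus LW called 1 of the 92 tested list genes at day 90 (1.09%, beside 3.59% of all probes) and 4 at day 110 (4.35%, beside 5.01%). TRAP1, the Hsp90 of mitochondria, was higher in MS by 1.47 at day 90 and by 1.21 ± 0.27 (q = 0.00109) at day 110, and HSPA4, a relative of HSPH1, by 0.98 ± 0.24 (q = 0.0031) at day 110. The only one lower in MS at day 110 was DNAJA4 (-0.61), an Hsp40. TRAP1 also differed by sow breed at day 90 (0.81) and by sire breed (0.71), higher in both with MS parents. Sow breed at day 90 called DNAJC3, an inhibitor of the kinase PERK, at 0.79 (q = 0.00966). HSPA5, the client-binding Hsp70 of the same compartment as DNAJC3, had no called sow difference in the main analysis.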

How the data were processed

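Total RNA of 63 fetal jejunum samples was labelled with Cy3 and hybridised singly to a porcine Agilent array with probes of 60 bases. The deposited scanner files hold intensity values per spot; per the labels they were extracted by the authors with Agilent Feature Extraction 10.10.1.1. Here log2 of the processed signal minus each array's 75th percentile was taken, outlier spots were left out, and spots of 1 probe were averaged. The deposited value table holds log2 values processed by the authors (39446 probes, column medians 8.61), and it was used as an alternative only. A probe entered the tests if 75% or more of the arrays in any group had it well above background. A model of 8 group means was fitted over all probes with limma 3.58.1 in R 4.3.3, and 13 contrasts were tested with Benjamini-Hochberg adjustment over all probes. The number of arrays limits the precision. Correlations used permutations of the fetuses (100000 shuffles) in Python 3.11.15 with SciPy 1.17.1. The study's model held the sow as a random term, which the labels do not give. The methods of limma were tested on simulated data.

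Genes were named by rule: all members, by their brightest tested probe; from each chaperone list up to 4 called genes with the largest age difference; up to 4 called for breed at day 110 or for sow; and the 3 genes most like each called member. DDIT3, DNAJA4 and the handling genes were named outside this rule. The members and the lists were chosen with earlier results of these data known. Alternatives were the authors' values, median centring, quantile normalization, normexp background, no filter, a stricter filter, the slide as a block, array weights, the mean of all probes of a gene, and 61 fetuses (without LW fetuses 484 and 469, which the study left out of its fold changes). Leaving out fetus 632, the enterocyte covariate, the direct comparison of the crosses and the relations with marker sums and CIRBP were added after the data were seen.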

Additional observations from a re-analysis of the deposited data

Results flagged for a closer look

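Within single groups, 5 of 72 sets of values held a fetus farther from the others than Dixon's limit, where chance gives about 1 in 20. MS fetus 632 of day 110 accounted for 4: it had the lowest level of HSPA5 (1.65, others 4.23 to 4.82), HSPA8 (3.98, others 5.15 to 5.77), HSPD1 (3.38, others 4.50 to 5.09) and HSPH1 (0.019, others 0.92 to 1.42). In the same array the enterocyte marker sum was low (152) and the fibroblast sum high (307). Its HSP90AA1 (6.04), HSPB8 (3.31) and HSPB1 (4.15) levels were above those of the other 6. The part of sample makeup was not tested. The remaining value was HSPB3 in 1 MSLW fetus of day 90, at -7.90, where the probe was not well above background.

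The effect of the sow's breed differed between the days, by the test of the difference itself, for HSPB3 (-2.07) and for 2 HSPH1 probes, A_72_P050661 (-0.88) and A_72_P591989 (-0.60). The brightest HSPH1 probe gave -0.55 (q = 0.0864). With the slide as a block none of the 3 was called (-1.87, q = 0.0739; -0.86, q = 0.0618; -0.57, q = 0.0976).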

How the results depend on the processing

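No paired analysis was possible: each fetus was measured once, and the labels do not say which fetuses shared a sow, so litter mates could not be paired. The sire difference of HSPA5 was called in all 36 probe values over the alternatives (-0.83 to -0.62), as was the rise of HSPH1 in LW (0.86 to 1.62, 36 of 36). The lower HSPA5 in MS was called in 30 of 36 at day 90 (-1.33 to -0.94) and in 24 of 36 at day 110 (-1.14 to -0.53), HSPH1 at day 110 in 22 of 36 (-0.80 to -0.48), and DNAJB1 at day 90 in 9 of 12 for breed (0.63 to 0.83) and 31 of 36 for sow (0.40 to 0.60). Of 479 values 408 counted as the same, 70 lost their call and 1 changed sign: HSP90AA1 at day 90 was 0.16 as the mean of its 8 probes, against -0.52 for A_72_P232852. The 408 hold 35 medians of differences within slides. These have no test and counted as the same when they lay near the main difference. In all these counts the mean of a gene's probes entered once for each called probe. Only results called in the main analysis entered, so gained calls are not counted.

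Counts of the 7 genes moved as follows. Age averaged over genotypes went from 0 to 2 with median centring and without fetus 632, and to 1 with array weights and with the mean of probes. Age in LW went from 1 to 2 with the authors' values, quantile normalization, array weights and without fetus 632. Age in MS went from 0 to 1 with array weights and without fetus 632, and age in LWMS and in MSLW from 0 to 1 with the mean of probes. MS minus LW at day 90 went from 2 to 0 with median centring and without a filter, and to 1 with 61 fetuses and the mean of probes. At day 110 it went from 2 to 3 with the authors' values (HSPA8 added), to 0 with median centring, array weights and without fetus 632, and to 1 without a filter, with the slide as a block and with 61 fetuses. Sow breed at day 90 went from 1 to 0 with median centring. Sow breed at day 110 went from 0 to 2 with the authors' values (HSPA8 and HSPH1) and quantile normalization, and to 1 with the mean of probes and the enterocyte covariate. Sow breed by age went from 0 to 2 with the authors' values, and to 1 with quantile normalization and the mean of probes. Sire breed went from 1 to 2 with quantile normalization and the enterocyte covariate. Normexp background and the stricter filter moved no count. The causes were not tested.

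Median centring shifted the median of all probes at day 110 by 0.15 for MS minus LW and by 0.22 for sow breed, where 4153 probes were then called higher and 958 lower, against 1630 and 2411. With the authors' values breed by age was called for HSPB3 (-1.67, q = 0.00559) but not for HSPH1 (-0.97, q = 0.0164). Probes near background, HSPB3 and HSPD1 O3429 among them, are limited by signal.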
